A study of Mus musculus with 2 samples.

Results

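The Hox genes of the mouse are 39 protein-coding genes in 4 clusters, and they were chosen here by symbol from 21938 protein-coding genes of the GENCODE annotation. Hoxa holds 11 of them on chromosome 6, Hoxb 10 on chromosome 11, Hoxc 9 on chromosome 15 and Hoxd 9 on chromosome 2. DNase-seq, which maps chromatin that DNase I can cut, was carried out on ovary tissue of 2 female B6CASTF1/J mice aged 36 days. These are F1 hybrids of the C57BL/6J and CAST strains, 1 library was made per animal, and there is no second tissue or condition. A promoter counted as open if the gene had a peak no more than 500 bp from one of its annotated transcript starts, and its value is the highest signal value among those peaks, as the authors deposited it. No source states how these values were scaled, so they serve to rank peaks and to set one gene beside another within a library. Paired values are for replicate 1 and then replicate 2. The libraries stood apart at the Hox clusters, where replicate 1 had more peaks.

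Hox genes encode homeodomain transcription factors that give cells their position along the head-to-tail axis. Paralogs with the same number in different clusters descend from 1 ancestral gene. Within a cluster the genes lie in the order of their numbers, low numbers are used early and towards the head, and high numbers late and towards the tail. In the female reproductive tract the posterior Hoxa genes pattern the Müllerian duct, with Hoxa9 in the oviduct, Hoxa10 in the uterus, Hoxa11 in the lower uterus and cervix and Hoxa13 in the vagina. Polycomb complexes keep unused Hox genes silent, and Trithorax proteins hold used ones open.

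The tissue label was checked against marker promoters. All 7 granulosa cell markers were open in both libraries, as were 5 of 6 theca and steroidogenic markers, while 1 of 7 oocyte markers was open, against 66.7% of all protein-coding promoters. Foxl2, the transcription factor that maintains granulosa identity, had 6.14 in replicate 1 and 3.19 in replicate 2. Of 8 markers of oviduct and Müllerian duct epithelium, 5 were open in both libraries (62.5%, near the share of all), with a summed value of 39.7 in replicate 1 and 24.4 in replicate 2. Most of each sum came from 2 cilia genes. Rsph1, a part of the motile cilium, had 22.9 and 14.2, and Foxj1, which drives motile cilia, had 11.8 and 7.13. Of the rest, the Müllerian factor Pax8 had 1.26 and 0.975, and the cilia genes Sntn and Ccdc78 had no peak. All 6 genes of a uterine and Müllerian list were open, with sums of 21.4 and 12.9. They are Emx2, Wnt4, Lhx1, Wnt7a, Amhr2 and Wnt5a, and which cells they mark in this tissue was not tested. Sums over all protein-coding promoters, 112000 and 57700, were higher in replicate 1 as well. The part of oviduct or uterine cells in the Hox results was not tested. In bulk tissue fewer open cells and less opening per cell cannot be told apart.

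Of the 39 Hox promoters, 23 were open in both libraries, which is 59.0%, against 66.7% of all protein-coding promoters. Another 6 had a peak in replicate 1 alone, none had one in replicate 2 alone, and 10 had none. Over all protein-coding genes, 2.18% of promoters were open in replicate 1 alone and 1.29% in replicate 2 alone. By cluster, 6 of 11 Hoxa, 5 of 10 Hoxb, 5 of 9 Hoxc and 7 of 9 Hoxd promoters were open in both libraries. With the shorter of the authors' peak lists the Hox count dropped to 11 of 39, against 62.8% of all protein-coding promoters. Of the 23 open promoters, 21 had a peak of one library overlapping a peak of the other. At Hoxa6 and Hoxc8 the peaks of the libraries lay apart, and at Hoxc6 the highest peak of each library was a different one.

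**Figure D1:**
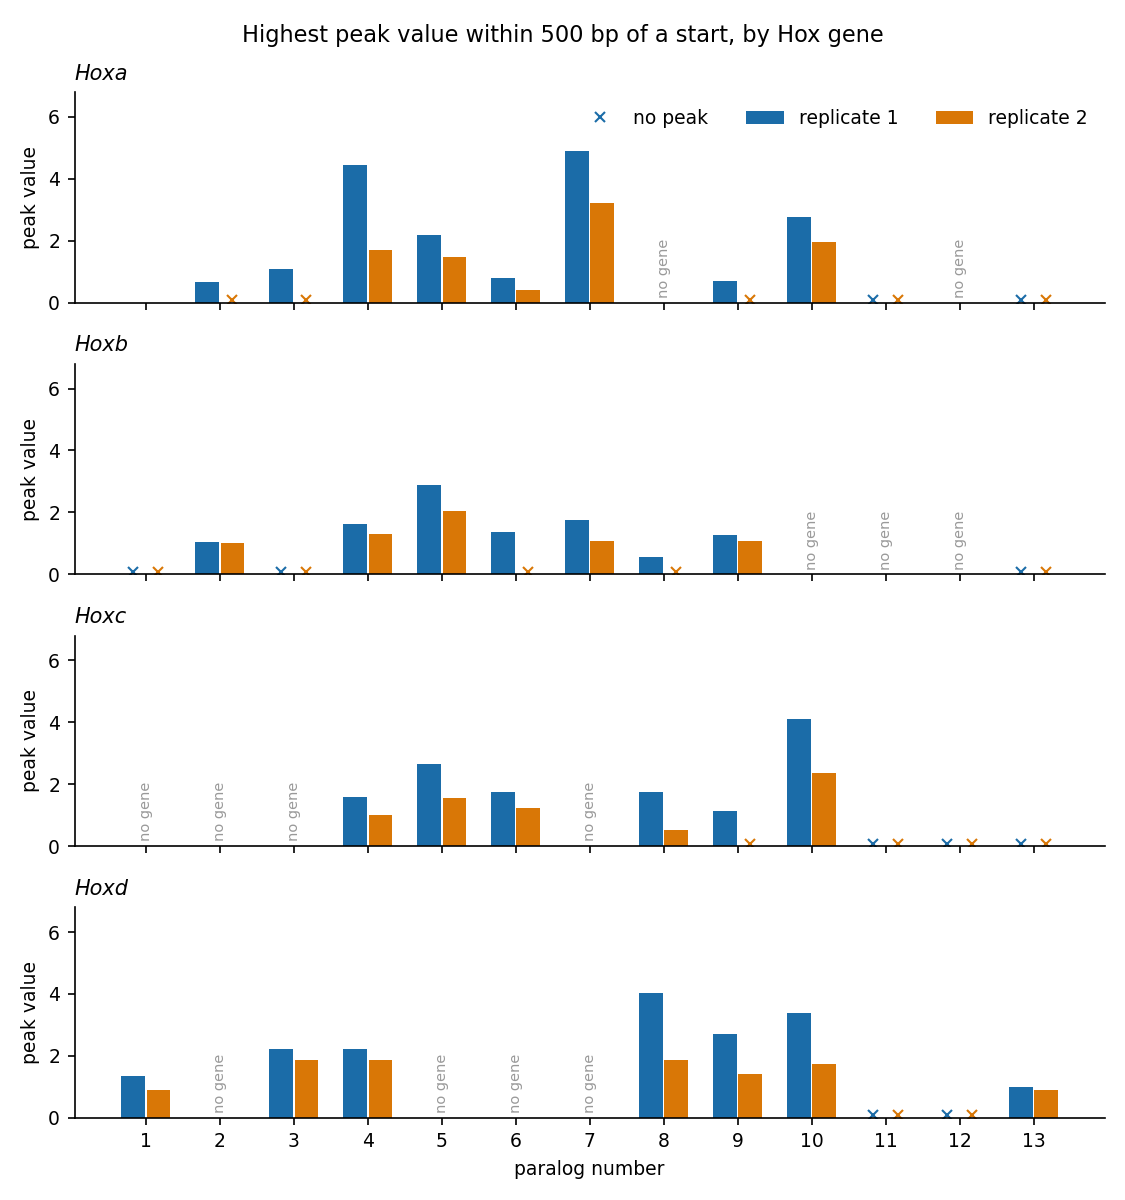
Promoter peak value (signal value as deposited, vertical axis) of the Hox genes by paralog number (horizontal axis), in 4 panels for the clusters, with a blue bar for replicate 1 and an orange bar for replicate 2. Crosses mark genes with no peak, a member that is not drawn leaves an empty place in the Hoxa panel, and of the paralogs numbered 11 to 13 only Hoxd13 has bars, at 0.990 and 0.883.

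Opening differed by paralog number. Of the genes numbered 1 to 10, 22 of 30 were open in both libraries (73.3%), near the 66.7% of all protein-coding promoters. In replicate 1, 28 of 30 were open (93.3%), against 68.9% of all. With the shorter peak list 11 of 30 were open in both, against 62.8% of all. Of genes numbered 11 to 13, 1 of 9 was open in either library (11.1%). The step lies between paralogs 10 and 11: all 7 genes numbered 9 or 10 were open in replicate 1 and 5 of them in both libraries. The split at 10 was not among the planned classes. By the usual classes, 8 of 12 anterior genes (1 to 4), 9 of 11 central genes (5 to 8) and 6 of 16 posterior genes (9 to 13) were open in both.

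In the Hoxa cluster, Hoxa7 had the highest value of all Hox promoters, 4.90 in replicate 1 and 3.23 in replicate 2. Hoxa4 had 4.44 and 1.71. Hoxa10, the uterine gene, had 2.77 and 1.97. These 3 led the cluster in both libraries, and the order of Hoxa4 and Hoxa10 differed between the libraries. Hoxa5 had 2.18 and 1.46, and Hoxa6, lowest of the open Hoxa genes, had 0.782 and 0.399. Hoxa2, which patterns the hindbrain and branchial arches, had 0.658 in replicate 1 and no peak in replicate 2, and Hoxa3 and Hoxa9 likewise had peaks in replicate 1 alone, at 1.08 and 0.703. Hoxa11 and Hoxa13, active lower in the tract, had no peak and no base with a listed q-value within 500 bp of a start in either library.

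In the Hoxb cluster, Hoxb5 led with 2.88 and 2.04. Hoxb4 had 1.63 and 1.29, Hoxb7 had 1.76 and 1.08, and Hoxb9 had 1.27 and 1.07. Hoxb2 was the lowest open gene at 1.04 and 1.01, so the open Hoxb promoters spanned a narrower range than those of Hoxa. Hoxb6 and Hoxb8 had 1.36 and 0.547 in replicate 1 and no peak in replicate 2. Hoxb1, Hoxb3 and Hoxb13 had no peak in either library, although Hoxb3 had bases listed in replicate 1 with a q-value as low as 2.69e-09.

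In the Hoxc cluster, Hoxc10 led with 4.10 and 2.36. Hoxc5 had 2.66 and 1.54, Hoxc6 had 1.76 and 1.22, and Hoxc4 had 1.60 and 1.01. Hoxc10 was thus the highest in both libraries, next to Hoxc11, Hoxc12 and Hoxc13, which had no peak. Hoxc8 had 1.75 and 0.517, the lowest mean of the open Hoxc genes, and Hoxc9 had 1.13 in replicate 1 alone.

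In the Hoxd cluster, Hoxd8 led in replicate 1 with 4.04, against 1.88 in replicate 2. Hoxd10 had 3.39 and 1.73. Hoxd9 had 2.71 and 1.40. Hoxd3 and Hoxd4 share an annotated start, and the same peak gave both 2.22 and 1.87, so they are 2 genes but 1 measurement. Hoxd13 was the lowest open gene, and its peaks lay 343 bp and 471 bp from the start in replicates 1 and 2, so no peak lay within 250 bp. Hoxd11 and Hoxd12 had no peak, and Hoxd11 had bases listed in replicate 1 with a lowest q-value of 0.0292. Hoxd1 had 1.35 and 0.890, in a peak shared with a start of the noncoding gene Haglr, which lies close by on the other strand.

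**Figure D2:**
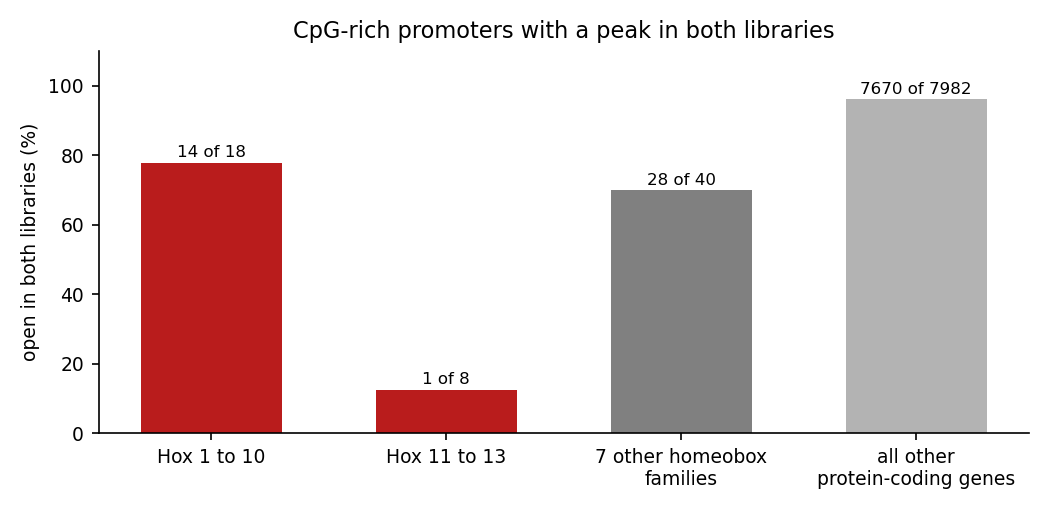
Share of CpG-rich promoters with a peak in both libraries (percent, vertical axis), for Hox genes numbered 1 to 10, Hox genes numbered 11 to 13, 65 genes of other homeobox families, and all other protein-coding genes. The Hox bars stand at 14 of 18 and 1 of 8, against 28 of 40 and 7670 of 7982.

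CpG-rich promoters, with a CpG ratio of at least 0.6 and a GC content of at least 50% in the 500 bp around the start, are usually open in most tissues. Among the CpG-rich Hox promoters 15 of 26 were open in both libraries, which is 57.7%, against 96.0% of all CpG-rich protein-coding promoters. Another 4 had a peak in replicate 1 alone. In 7 other homeobox families, Pax, Lhx and Dlx among them, 28 of 40 CpG-rich promoters were open. Of the 9 Hox genes numbered 11 to 13, 8 were CpG-rich and 1 of these, Hoxd13, was open.

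Open Hox promoters were modest in value. Their median was 2.18 in replicate 1 and 1.40 in replicate 2, against 6.70 and 3.61 for all other open promoters. The open promoters of the 7 other homeobox families had lower medians than Hox, at 1.34 and 0.995. Hoxa7, the highest Hox promoter, stood at the 41.1 percentile of open promoters in replicate 1 and the 46.3 percentile in replicate 2. Replicate 1 values were higher at every open promoter of a Hox gene, by a median log2 ratio (replicate 2 over replicate 1) of -0.61, and at all open promoters by -0.88. The medians differ by 0.28. Single Hox promoters had an SD of 0.40 and all open promoters 0.39, which is a spread of promoters and not the error of a median. Across the 23 open Hox promoters the log2 values of the libraries had a Pearson correlation of 0.836, against 0.969 over all 14631. Hox promoters cover a narrower range of values, and Hoxd3 and Hoxd4 share a peak. At Hoxa6, Hoxc6 and Hoxc8 the paired values come from different peaks in the libraries. Whether any of these bears on the correlation was not tested.

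**Figure D3:**
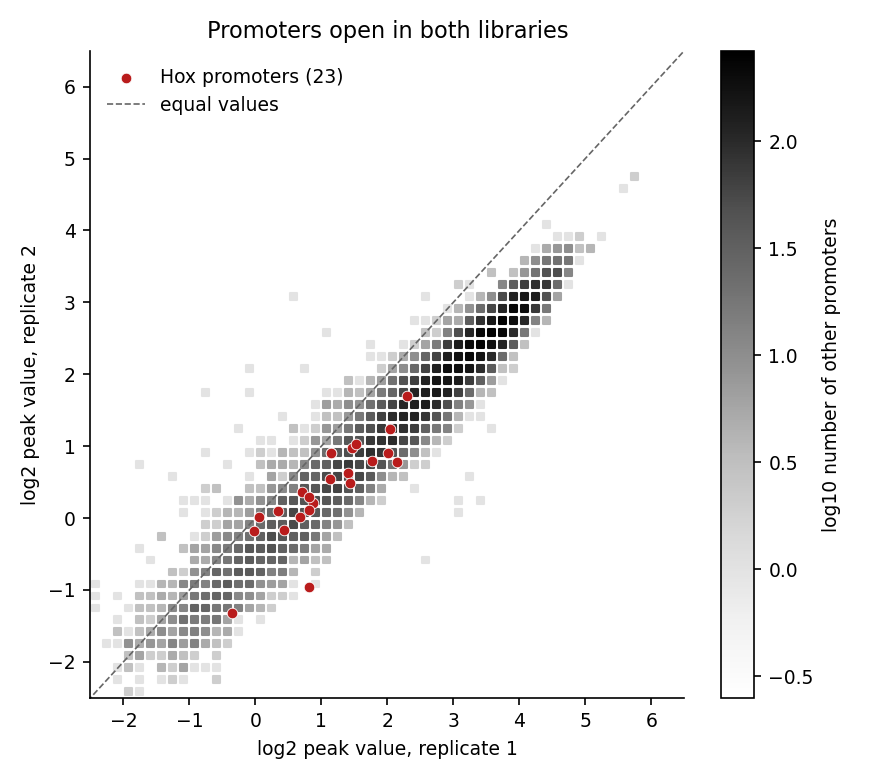
Log2 promoter peak value in replicate 1 (horizontal axis) against replicate 2 (vertical axis), for the 23 open Hox promoters (red) and all other open promoters (grey squares, darker for more promoters), with a dashed line of equal values. The Hox points lie in the lower to middle part of the cloud, all below the line of equal values.

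Beyond promoters, all peaks from the first to the last Hox gene plus 20 kb on each side were counted. The windows cover 145 kb (Hoxa), 214 kb (Hoxb), 156 kb (Hoxc) and 137 kb (Hoxd), and 652 kb in all. They held 172 peaks in replicate 1, which is 2.64 per 10 kb, against 0.401 over all chromosomes. In replicate 2 they held 72 peaks, or 1.10 per 10 kb, against 0.420. Peaks covered 6.12% of the windows in replicate 1 and 1.98% in replicate 2, against 0.796% and 0.908% of the genome. So the clusters were denser in peaks than the genome in both libraries, and denser in replicate 1 than in replicate 2.

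**Figure D4:**
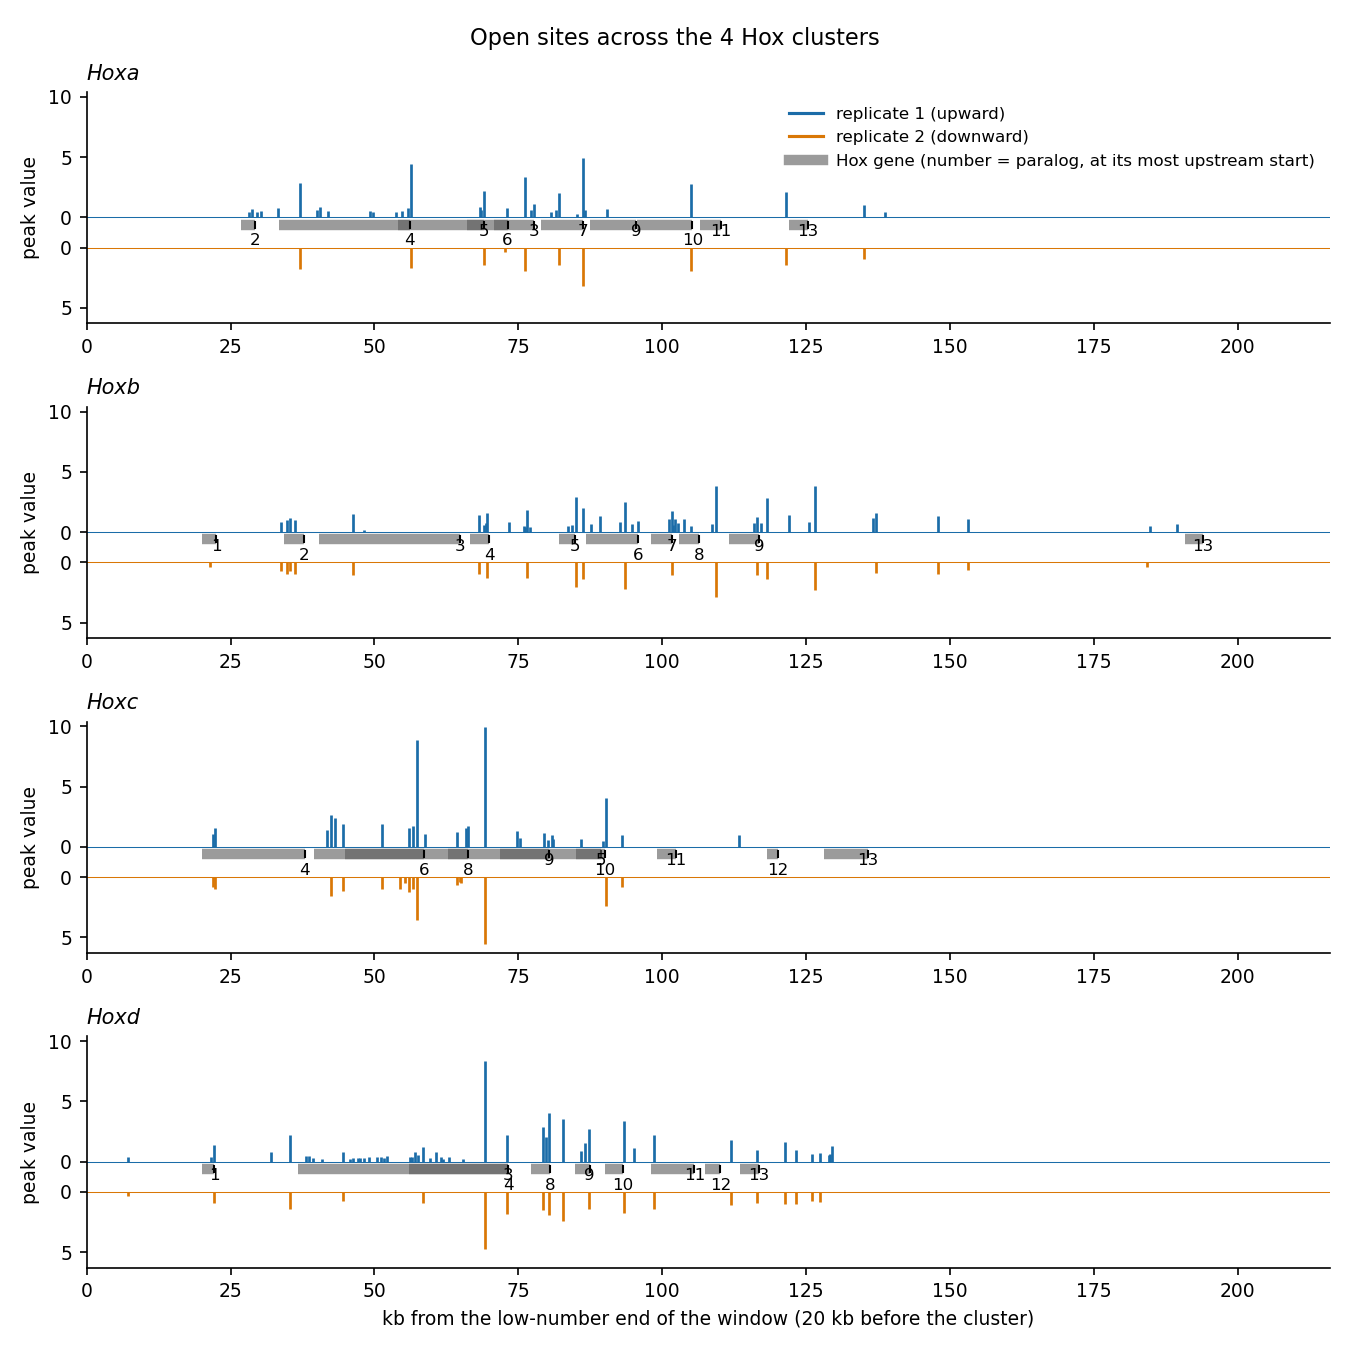
Peak values across the 4 Hox windows, with replicate 1 drawn upward in blue and replicate 2 downward in orange (signal value as deposited). The horizontal axis gives kb from the low-number end of each window, grey bars are Hox genes with their paralog number at the most upstream start, a Hoxa member and the sites nearest to it are not drawn, and the genes numbered 11 to 13 span 1, 0, 1 and 3 sites in Hoxa, Hoxb, Hoxc and Hoxd.

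Merging the peaks of both libraries gave 169 sites in the windows. Of these 62 were found in both libraries (36.7%), 100 in replicate 1 only (59.2%) and 7 in replicate 2 only (4.14%), against 57.4%, 19.2% and 23.4% of all 137126 sites. Hoxa had 12 sites in both and 25 in replicate 1 only, Hoxb 19 and 28, Hoxc 12 and 14, and Hoxd 19 and 33. Sites of replicate 2 alone numbered 1, 2, 4 and 0 in the same clusters. The one-sided excess was present in each cluster, from 46.7% in Hoxc to 65.8% in Hoxa.

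**Figure D5:**
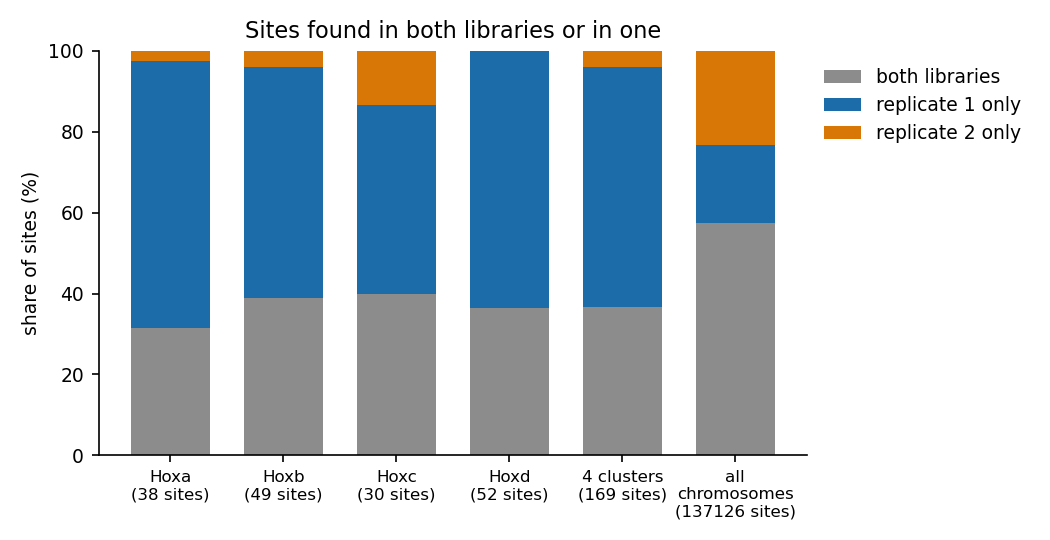
Share of sites (percent, vertical axis) found in both libraries (grey), in replicate 1 only (blue) or in replicate 2 only (orange), for each Hox cluster, the 4 clusters together and all chromosomes. Replicate 1 only sites make up 46.7% to 65.8% of the Hox sites, against 19.2% of all sites.

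Sites were also split by base composition, whose part in the excess was not tested. Split into 5 GC classes of all sites, between 54.5% and 61.5% of the Hox sites in each class were found in replicate 1 only, against between 8.52% and 28.9% of all sites. Among sites with a CpG ratio of at least 0.6, 57.3% of the Hox sites and 13.1% of all such sites were of that kind. Around the 65 genes of other homeobox families, 22.6% of 527 sites were in replicate 1 only. Among genome tiles of 150 kb with at least 20 sites, 1.38% reached the share of the Hoxa window, 2.76% that of Hoxb, 5.46% that of Hoxc and 1.84% that of Hoxd. The median value of the replicate 1 only Hox sites was 0.622, against 0.404 for all such sites. By cluster it was 0.599 in Hoxa, 0.716 in Hoxb, 1.01 in Hoxc and 0.397 in Hoxd, so Hoxd was not above all sites. The authors' per-base listing, which holds bases with q-values up to 0.05, covered 8.72% of the windows in replicate 1 and 2.67% in replicate 2, against 1.33% and 1.48% of the genome. Animal and library cannot be told apart here. Open marker promoters were also described by their median log2 ratio (replicate 2 over replicate 1). It was -0.47 for oviduct and Müllerian epithelium and -0.73 for the uterine and Müllerian list. The other lists stood at -0.32 (stroma), -0.42 (surface epithelium), -0.75 (granulosa) and -0.83 (theca and steroidogenic), and the 1 open oocyte marker at -0.78. The median of all open promoters was -0.88. The part of these markers in the excess was not tested.

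Of the 30 sites nearest to Hoxd3 or Hoxd4, 25 were in replicate 1 only, out of 33 such sites in the Hoxd window. These 25 were weak, with values from 0.215 to 0.834, against a median of 0.808 over all replicate 1 peaks. Hoxc9 had 6 sites and all were in replicate 1 only, whereas the 4 sites of Hoxb2 and the 2 sites of Hoxc10 were found in both libraries.

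All sites, most of them in replicate 1 only, were sparser around the high-number genes in each cluster. Over the span of the genes numbered 11 to 13, sites numbered 0.533 per 10 kb in Hoxa, 0 in Hoxb, 0.273 in Hoxc and 1.60 in Hoxd, against 4.10, 3.82, 3.85 and 5.33 over the genes numbered 1 to 10. Sites found in both libraries numbered 0.533, 0, 0 and 1.60 per 10 kb over the genes numbered 11 to 13 of Hoxa, Hoxb, Hoxc and Hoxd, against 1.17, 1.45, 1.43 and 1.37 over those numbered 1 to 10, so in Hoxd they were not sparser. The Hoxb span is Hoxb13 alone, which covers 3.13 kb. Evx2, the homeobox gene next to Hoxd13, had 0.625 and 0.720. Of the sites within it, 2 were the only shared Hox window sites with a higher value in replicate 2. The other sites within Evx2 were in replicate 1 only, the highest at 1.32.

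The strongest sites did not lie at Hox promoters. A site in an intron of Hoxc5, 2907 bp from the nearest Hoxc8 start, had 9.96 and 5.51. The site at the start of the noncoding antisense gene Hoxd3os1, 3912 bp from the nearest Hoxd4 start, had 8.34 and 4.73. A site in an intron of Hoxc5 and Hoxc6, 964 bp from a Hoxc6 start, had 8.90 and 3.57. All 3 had higher values than Hoxa7, the highest Hox promoter, in both libraries. In Hoxb the strongest site over 500 bp from every start had 3.86 and 2.88, 2845 bp from the start of Hoxb8. The next sites of Hoxb had 2.52 and 2.24 in an intron of Hoxb6, and 2.85 and 1.39 beside Hoxb9. These 3 Hoxb sites were weaker than the top 2 of Hoxc. In Hoxa the strongest had 3.33 and 1.95, in an intron of Hoxa3, and the one other such site had 0.990 and 0.988, 9721 bp from Hoxa13. In Hoxd the strongest had 3.52 and 2.38, beside Hoxd8, followed by 2.85 and 1.52 in a coding exon of Hoxd8 and by 2.21 and 1.44 in Hoxd11. The third Hoxc site, in an intron of Hoxc5, had 1.88 and 1.17, below all 3 of Hoxb on the mean.

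CTCF binds at the borders of chromatin loops, also within the Hox clusters. The letters CCA, AG and GGC with 2 free bases between neighbouring parts, searched on both strands, occurred in 5 of the 62 shared Hox sites (8.06%, 95% Wilson interval 3.49 to 17.5), against 12.0% of all shared sites. The 5 matches are printed with 9 bases on either side, from RefSeq GRCm38, with the matched letters in capitals. Of these, 4 overlap a footprint in both libraries, with no share over all CTCF matches to set beside that count. Whether CTCF bound any of the 5 matches was not tested. They lie at chr6:52221800-52221829 (Hoxa7), chr6:52240532-52240561 (Hoxa10), chr2:74673169-74673198 (between Hoxd12 and Hoxd13) and chr15:103000796-103000825 (Hoxc6), all on the minus strand, and at chr2:74715912-74715941 (Hoxd3os1), on the plus strand.
Hoxa7 site: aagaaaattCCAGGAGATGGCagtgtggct
Hoxa10 site: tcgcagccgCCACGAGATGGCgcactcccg
Hoxd12 site: gccaaacgcCCAGGAGATGGCgagcgtgct
Hoxd3os1 site: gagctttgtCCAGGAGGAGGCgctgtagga
Hoxc6 site: cacagtactCCAGGAGAAGGCtcccgttcg
The sites at Hoxa7 and Hoxd3os1 had the highest mean of their clusters, the Hoxd12 site had 1.77 and 1.09 and the Hoxc6 site 1.56 and 1.22. The Hoxc6 match was the one without a footprint in either library. A second CTCF form occurred in 0 of 62, against 4.22%. The shorter core AGNNGGCGC, chosen after the sequences had been seen, occurred in 14 of 62 (22.6%), against 11.5% of all shared sites. Among sites with a CpG ratio of at least 0.6 the shares were 23.1% and 21.6%. It lies in the strongest Hox site, chr15:102987501-102987700 on the plus strand, printed with the core in capitals.
Hoxc5 intron site: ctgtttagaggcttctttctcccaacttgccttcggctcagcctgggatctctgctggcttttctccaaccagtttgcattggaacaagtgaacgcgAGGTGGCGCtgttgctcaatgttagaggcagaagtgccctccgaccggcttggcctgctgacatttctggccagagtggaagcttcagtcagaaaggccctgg

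Other factor motifs were searched in the same 62 sites. The letters of a retinoic acid response element (GNTCA, 6 free bases, GNTCA) occurred in 0 of 62, which allows up to 5.83% (95% Wilson interval), against 0.858% of all shared sites. A match lay in an intron of Hoxa3, in a site of replicate 1 only with 0.580, at chr6:52175524-52175557 on the minus strand, printed with the match in capitals.
Hoxa3 intron match: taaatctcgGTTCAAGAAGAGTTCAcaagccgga
The letters that posterior HOX proteins prefer, TTTACGA, occurred in 4 of 62 (6.45%, interval 2.54 to 15.4), against 0.475%. Among sites with a CpG ratio of at least 0.6 they occurred in 7.69%, against 0.826%. The 4 sites lay at Hoxa5, Hoxc6 and, in a pair, beside Hoxd8. The letters of PBX and HOX pairs, TGATNNAT, occurred in 5 of 62 (8.06%), against 5.24%. The letters of NR5A receptors, which drive steroid synthesis in the ovary, CAAGGTCA, occurred in 1 of 62 (1.61%), against 3.79%. The site 2115 bp from Hoxd8, the strongest Hoxd site away from every start, is printed, at chr2:74702321-74702500 on the plus strand, with the match, which reads on the minus strand, in capitals.
Hoxd8 flank site: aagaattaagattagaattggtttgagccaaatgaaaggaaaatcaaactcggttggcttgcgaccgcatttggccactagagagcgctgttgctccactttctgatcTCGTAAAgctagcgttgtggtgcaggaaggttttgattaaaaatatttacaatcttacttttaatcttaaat

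Footprints, short stretches protected from cutting inside a peak, were about as dense as elsewhere. Hox peaks held 10.8 ± 0.602 footprints per kb of peak (SD, n = 2), against 10.6 ± 0.863 over all peaks. By cluster the means were 12.8 ± 4.14 in Hoxa, 11.3 ± 0.491 in Hoxb, 9.39 ± 3.19 in Hoxc and 10.2 ± 1.42 in Hoxd (SD, n = 2 each). The libraries differed more in Hoxa and Hoxc than these clusters differed from the genome. The footprint score is 0.01 in each line and gives no ranking.

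Noncoding genes of the clusters followed the pattern of their neighbours in part. Hotair in the Hoxc cluster and Hottip and Hoxa11os near the posterior Hoxa genes had no promoter peak in either library. Hoxd3os1 had the highest noncoding promoter value, 8.34 and 4.73, and Haglr had 2.25 and 1.38. Of the microRNA genes, Mir10a, Mir196a-1, Mir196a-2 and Mir196b had no peak within 500 bp of the annotated start. Mir10b had a peak in replicate 1 alone, at 0.293. The microRNA entries are short, so their annotated starts need not be starts of transcription, and a missing peak there says nothing about a promoter. No share over all noncoding genes was available to set beside these genes. Mir615 lies in reach of the Hoxc5 promoter peak, which was found in both libraries but came within 500 bp of the Mir615 start in replicate 1 alone.

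Genes of proteins that act on Hox genes or with them were read against the 66.7% of all protein-coding promoters open in both libraries. All 9 genes of PBX and MEIS cofactors, which bind DNA beside HOX proteins, were open in both libraries. Pknox1 was the highest, at 17.4 and 7.71, before Pbx3 at 14.8 and 6.36. All 17 Polycomb genes were open, led on the mean by Cbx8 at 18.6 and 8.70 and by Jarid2 at 18.8 and 8.43, while Pcgf1 was highest in replicate 2 at 9.12. Of 11 Trithorax genes 10 were open, led by Kdm6a, an H3K27 demethylase, at 26.3 and 12.1, and Kmt2a, which writes H3K4 methylation, at 19.1 and 9.39, with Kdm6b open in replicate 1 alone. Among the retinoic acid genes 11 of 16 were open (68.8%, near the share of all), led by the receptor genes Rxrb at 21.0 and 9.12 and Rarg at 10.9 and 4.85, and Cyp26c1 had no peak. Of a list of caudal and other homeobox genes, not all of which lie beside Hox clusters or act on Hox genes, 3 of 10 were open, below the share of all. Gsx1 had 4.12 and 2.47, Cdx1 and Cdx2 had no peak, and 4 genes were open in replicate 1 alone.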

How the data were processed

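DNase-seq peaks, footprints and per-base false discovery rates had been made by the authors for each library separately from its filtered alignments on mm10, per the labels and the text files that accompany them. Aligner, caller and cutoffs were not given in the sources used here. Signal values were taken as deposited. All were whole multiples of a step (tolerance 0.05 step), and that 1 step is 1 read was not shown. The authors deposited false discovery rates as q-values, which list bases only up to 0.05, and a footprint score of 0.01 in each line, of which only positions were used. The longer of the 2 peak lists of each library was the main one. Peaks numbered 109169 in replicate 1 and 114462 in replicate 2, so the number of animals, 2, and not the number of peaks limits the precision.

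Starts came from GENCODE vM21 and sequence from RefSeq GRCm38, which is the same build and holds C57BL/6J sequence, not the CAST alleles. Overlaps, counts and motif searches were computed in Python 3.11.15 with numpy 2.4.6, pandas 2.3.3 and scipy 1.17.1, and the overlap and promoter counts were tested on simulated data. Sites are merged peaks of both libraries, and a site was found in both where peaks shared at least 1 base. There is 1 group of 2 animals, so no contrast was tested. Intervals cover counting error of the sites, not animals. The labels name 2 animals with separate biosample entries but the same donor entry, which was read as the strain. Members, lists and motifs were chosen with earlier results of these data known. The genes and sites named were the 4 highest and the lowest open promoter of each cluster, members lacking a peak in a library, the 3 strongest sites over 500 bp from every start, sites with CTCF or retinoic acid matches, and the 2 highest and up to 2 peakless genes of each list. A few others were chosen after their values were seen: Hoxd1, Kdm6b, Pcgf1, the named cell markers and the noncoding genes. Some items that this rule names are not reported here. Alternatives tried were the shorter peak list, windows of 250 and 1000 bp, the start nearest the coding start, peaks above the library median, no flank, a stricter overlap, other motif letters and either library alone.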

Additional observations from a re-analysis of the deposited data

How the results depend on the processing

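With the shorter peak list the counts of Hox promoters open in both libraries were 11 for all Hox, 3 for paralogs 1 to 4, 5 for paralogs 5 to 8, 3 for paralogs 9 to 13, 1 for Hoxb, 2 for Hoxc and 4 for Hoxd, and the shared peaks of replicate 1 were 6 in Hoxb, 5 in Hoxc and 7 in Hoxd. Over all protein-coding promoters 62.8% were open with the shorter list. Hoxb had 2 open promoters within 250 bp, where 65.1% of all protein-coding promoters were open. Hoxc had 3 at the start nearest the coding start, where the share of all was also lower, at 47.5%. Footprints per kb were 13.5 in Hoxb and 13.2 in Hoxd with the shorter list, and 11.9 in Hoxb and 11.9 in Hoxd with peaks above the library median. The share of shared Hox peaks with a CTCF match was 7.81% of replicate 1 peaks, and 0% and 21.9% with the second form and the core letters, chosen after the sequences were seen. Of replicate 1 peaks in the clusters 62.8% lacked a replicate 2 peak, 75.0% with the shorter list and 35.2% above the library median, against 24.5%, 19.9% and 11.9% of all replicate 1 peaks. For replicate 2 the share was 9.72%, and 4.69% above the library median, against 28.5% and 16.5% of all replicate 2 peaks. Leaving out a replicate gave counts of shared peaks from 13 to 37 in Hoxa, 22 to 48 in Hoxb, 16 to 27 in Hoxc and 21 to 60 in Hoxd, since all peaks of the remaining library then count, and 23 to 29 open Hox promoters. Of all protein-coding promoters, 68.0% were open without replicate 1 and 68.9% without replicate 2. Under the alternatives given here 0 or 1 of the 9 paralogs numbered 11 to 13 were open, against 47.5% to 68.9% of all. Of 126 recomputed values 101 stayed within 1 SD, the counting interval or 1.5 times the count, and 25 moved, for which the cause was not tested. The 101 include footprints per kb with a library left out, where the outcome was fixed in advance. Either of 2 values always lies within 1 SD of their mean, so these say nothing about stability. No paired analysis was possible because there is only 1 group. Depth is unknown, so a promoter with no peak was not detectable as open and is not shown to be closed, and 2 animals give no test of the differences described.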
